A study of Mus musculus with 36 samples.

Results

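The 10 genes described here are those usually grouped as the Lin28 and let-7 developmental timing circuit: Lin28a, Lin28b, Trim71, Mycn, Arid3a, Hmga1, Hmga2, Igf2bp1, Igf2bp2 and Igf2bp3. They were chosen by symbol, and all 10 were found among the 22761 genes of the expression table. Their messenger RNA was measured in 36 libraries of sorted mouse kidney progenitors, in 9 groups of 4. The ex-fetu cells came from CD1 mice at E11.5 and E12.5 and were sorted as nephron progenitors (NP, ITGA8 high and PDGFRA low), stromal progenitors (SP, ITGA8 low and PDGFRA high) or ureteric bud (UB, RET+ and EpCAM+). The embryonic stem (ES) cell-derived counterparts were iNP and iSP, made from E14 mESC, and eUB (called iUB in the labels), made from Sox9-mCherry-mESC and sorted as EpCAM+/mCherry+. No group carried a further treatment or allele according to the labels. The kidneys of all embryos of a mouse were pooled into each ex-fetu sample, and embryoid bodies from a batch of differentiation into each ES-derived sample. The eUB therefore differed from iNP and iSP in parent cell line and culture protocol as well as in cell type, and these cannot be told apart. The samples titled E11.5 UB give E12.5 as their cell source and the samples titled E12.5 UB give E11.5. Titles were used throughout, and the columns of the expression table carry the same ages as the titles. If the other label were the right one, the direction of every comparison of the 2 UB ages would turn, and the values given for E11.5 UB, alone or in any comparison with eUB, NP or SP, would be those of E12.5 UB and the reverse. The study's methods also name Sox9-mCherry for the sorted and sequenced eUB, but the reporter line whose making they describe is Sox8-mCherry, and the name in the labels was kept.

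LIN28A and LIN28B are RNA-binding proteins that hold back the maturation of let-7 microRNAs in early embryos and stem cells. As development proceeds LIN28 declines, mature let-7 accumulates, and let-7 in turn represses mRNAs that carry its seed match, including those of LIN28 itself, TRIM71, HMGA2, ARID3A and the IGF2BP proteins. In the kidney, falling Lin28 is known as part of the timer that ends nephron progenitor renewal. Mature let-7 was not measured in these mRNA libraries, so the values below concern the protein-coding side of the circuit only.

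The mature let-7 sequences are shown because the seed they share is what the members' untranslated regions were searched for. Capitals mark the seed, bases 2 to 8 counted from the 5′ end, and the sequences are from RefSeq for GRCm38. Of 11 mature names from 13 loci, 10 carried the same seed, and let-7j differed in its last seed base.
let-7a-5p: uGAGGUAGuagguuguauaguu
let-7e-5p: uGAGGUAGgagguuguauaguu
let-7g-5p: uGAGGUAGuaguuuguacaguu
miR-98-5p: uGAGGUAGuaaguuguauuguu
let-7j: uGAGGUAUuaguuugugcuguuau
Let-7a and let-7e differed at 1 position, and let-7a and miR-98 at 2.

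LIN28 is known to grip let-7 precursors through their terminal loop, where its zinc knuckles prefer the letters GGAG. The loop between the mature arms could be taken for 11 hairpins, and 8 of them held GGAG (capitals). Examples with it and 1 without it are shown, since they are what the LIN28 proteins described below are known to bind.
Mirlet7a-1: uuagggucacacccaccacugGGAGauaa
Mirlet7e: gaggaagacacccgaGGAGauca
Mirlet7f-2: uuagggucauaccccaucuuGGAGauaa
Mirlet7c-2: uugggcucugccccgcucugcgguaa

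The members' longest annotated 3′ untranslated regions (GENCODE vM21, GRCm38) were searched on the sense strand for CTACCTC, the 7-base match to the seed, and for CTACCTCA, the 8-base match that contains it. At least 1 match was found in 9 of the 10 members, with 23 matches in all, and 8 members held an 8-base match. Among 16128 genes of the table with such a region, 11.5% held a 7-base match and 4.13% an 8-base match. The members' regions were mostly long, so the share among the 200 genes nearest in length gives a closer reference. It was 16% for Hmga2, which held 4 matches, 31% for Trim71, which also held 4, and 7% for Mycn, which held 0 in 913 bases. Sites of members that the results below turn on are shown, with the match in capitals.
Lin28a, chr4:134005181-134005208, minus strand: cagcctgttgaaCTACCTCAtttttgcc
Lin28b, chr10:45381014-45381041, minus strand: cgggcgggaagtCTACCTCAtgcaagca
Trim71, chr9:114512464-114512491, minus strand: attgcctaagtcCTACCTCAgcttaaat
Hmga2, chr10:120364216-120364243, minus strand: gacattcaatttCTACCTCAgcatcagt
Igf2bp1, chr11:95961770-95961797, minus strand: gtgcgaagtaaaCTACCTCAaggtgtga
Arid3a, chr10:79953898-79953925, plus strand: gcaagtttctttCTACCTCAggtctttt
Hmga1, chr17:27563280-27563307, plus strand: tctgttcacaaaCTACCTCtggacggtt
The Hmga1 site was the 7-base form, with t in place of the final A. Igf2bp2 and Igf2bp3 held 1 8-base match each. A match is a description of the letters and not evidence of use.

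**Figure D1:**
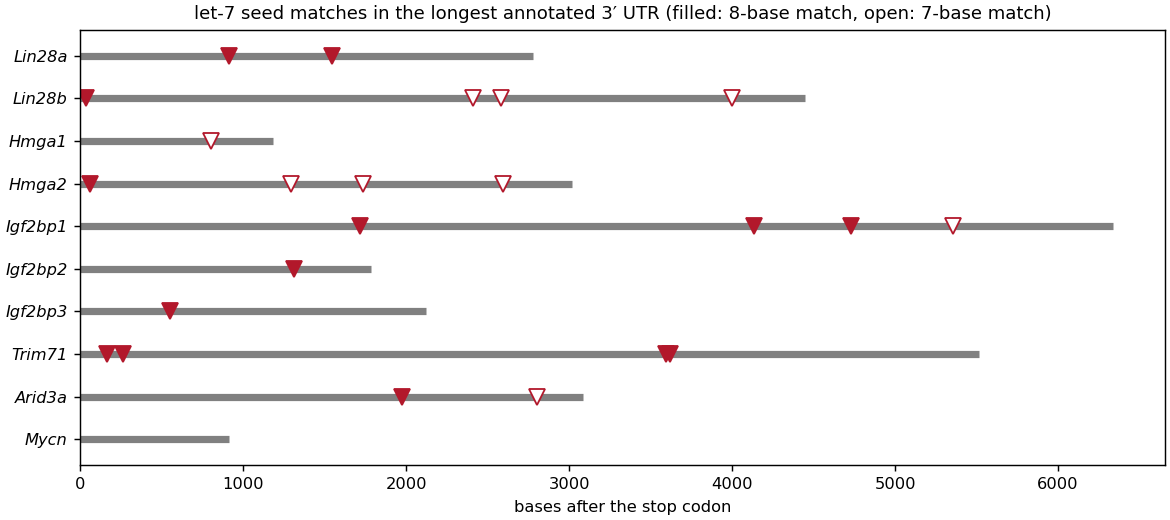
Positions of let-7 seed matches along the longest annotated 3′ untranslated region of each member, in bases after the stop codon. Filled triangles are 8-base matches and open triangles 7-base matches. Trim71 carries 4 filled triangles, Lin28b, Hmga2 and Igf2bp1 carry 4 triangles each of mixed kind, and Mycn carries 0.

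Libraries held 13 to 52.5 M counted reads, and the value of 3 reads ranged from 0.060 to 0.223 normalised CPM (read counts relative to library size, scaled by the authors). The sorted types showed their defining markers: the summed level of 10 NP markers was 1807 to 2884 normalised CPM over ex-fetu NP libraries, and that of 11 UB markers 4263 to 4572 in E11.5 UB. The iSP libraries held Foxd1, a defining stromal transcription factor, at 15.2 ± 3.67 normalised CPM (SD, n = 4) against 410 ± 126 in E11.5 SP, and the iNP libraries held Six2 at 139 ± 15.9 against 590 ± 35.7 in E11.5 NP. Calb1 was at 41.4 ± 6.57 in eUB against 608 ± 68.8 in E11.5 UB. Library 1 of E12.5 UB stood apart from the other 3: its UB marker sum was 2725 against 4276 to 4414, its NP marker sum 581 against 62.0 to 104 and its SP marker sum 1032 against 196 to 218. Library 2 of iNP also stood apart, with an NP marker sum of 860 against 1135 to 1308 in the other 3. Its sum of 24 other let-7 targets was 3313 against 5159 to 5336, and the counts of the gene lists were not recomputed without it. Library 1 of E12.5 SP held the heat-shock gene Hspa1a at 512 against 6.65 to 7.32 in the other 3, and library 1 of E12.5 NP held it at 194 against 1.10 to 1.18. Hspa1a also moved with the groups: it was at 103 to 150 in E11.5 SP, 165 to 188 in E11.5 UB and 13.3 to 37.1 in E11.5 NP, against 0.498 to 1.29 over the iNP and iSP libraries and 16.9 to 162 in eUB. Its part in the comparisons of E11.5 cells with ES-derived or E12.5 cells was not tested.

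Per kilobase of exon, Hmga2 was the highest member in all 9 groups and the Lin28 and Trim71 transcripts were among the lowest. Hmga2, a chromatin architectural protein of embryonic cells, ranged in group mean from 85.6 normalised CPM per kb in E12.5 NP to 235 in iSP. Lin28a was last of the 10 in 6 groups, including E12.5 SP at 0.0139 per kb, but was seventh in iNP at 20.3 ± 2.16 per kb (SD, n = 4), between Mycn and Arid3a. Of the per-kilobase sum of Lin28a and Lin28b, the Lin28a share was 81.9% in iNP, 64.9% in iSP and 50.2% in E11.5 NP. It was 5.85% in eUB, 28.2% in E11.5 UB, 11.9% in E12.5 NP and 1.71% in E12.5 SP. Which of the 2 Lin28 genes made up most of the transcript therefore differed between the ES-derived mesenchyme and the eUB.

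Lin28a (chr4:134003330-134018841, minus strand) encodes the paralog that acts mainly in the cytoplasm. In iNP its 4 libraries held 74.5, 93.5, 76.0 and 81.3 normalised CPM, and in E11.5 NP 25.3, 7.08, 8.19 and 3.86. In E12.5 NP they held 1.05, 1.18, 1.18 and 0.746. All 4 iNP libraries lay above all 8 ex-fetu NP libraries. On the log2(value + 1) scale used for every fold change here, Lin28a was 3.05 ± 0.41 higher (SE, n = 4 and 4) in iNP than in E11.5 NP (limma adjusted p = 0.00014) and 5.34 ± 0.14 higher than in E12.5 NP (adjusted p = 2.0e-08). Library 1 was the highest of E11.5 NP, and without it the difference from E11.5 NP was 3.52 (adjusted p = 6.5e-06).

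The stromal cells showed the same order at lower levels. Lin28a was at 20.8, 21.6, 21.8 and 18.1 normalised CPM in iSP, and at 16.3, 4.21, 2.19 and 0.910 in E11.5 SP. In E12.5 SP, 3, 3, 0 and 0 reads were counted, each at or under the floor of 3 reads. All 4 iSP libraries lay above all 8 ex-fetu SP libraries, and the difference between iSP and E11.5 SP was 2.15 ± 0.55 on the log2 scale (adjusted p = 0.0063). The E11.5 SP libraries were widely spread, and the size of that difference moved with them: without library 1 it was 2.77, and without library 4 it was 1.71 (adjusted p = 0.0068). Over pooled reads, iSP held 378 times the E12.5 SP rate, with an exact 95% interval of 174 to 1032. E11.5 SP held 103 times that rate, with an interval of 47.1 to 281. Both intervals rest on 6 reads in E12.5 SP and cover counting error only. Without library 1 of E11.5 SP, which held 488 of its 751 reads, the second ratio was 46.4. Without library 1 of E12.5 SP the ratios were 631 and 172.

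In the ureteric bud the ES-derived cells lay below the E11.5 cells instead. Lin28a was at 1.11, 1.74, 1.59 and 1.03 normalised CPM in eUB, at 5.46, 6.99, 5.36 and 5.26 in E11.5 UB, and at 12.6, 2.70, 1.92 and 1.55 in E12.5 UB. All eUB libraries lay below all E11.5 UB libraries, with a difference of -1.52 ± 0.14 on the log2 scale (adjusted p = 1.1e-05). The difference from E12.5 UB was -0.90 ± 0.47 (adjusted p = 0.15), and without library 1 it was -0.36 (adjusted p = 0.12), so neither passed the test. The high E12.5 UB library was the one that stood apart in its markers. It also held Pou5f1, the core pluripotency factor, at 5.77 normalised CPM where the other 3 held at most 0.0483, and the part of this in its Lin28a value was not tested.

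Transcripts of the core pluripotency factor were low in the ES-derived groups, but not absent from iNP and iSP. Pou5f1 was at 0.819 to 2.43 normalised CPM in iNP and 0.702 to 2.08 in iSP, against at most 0.0795 in E11.5 NP and E11.5 SP. The summed level of 12 ES cell markers was 33.7 to 49.2 in iNP against 3.69 to 4.47 in E11.5 NP, with Sox2, also a neural gene, alone at 29.7 ± 4.63. It was 9.50 to 13.6 in iSP against 2.63 to 6.91 in E11.5 SP. In eUB Pou5f1 was counted in 1 of 4 libraries, at 0.149, and 6 of the 12 markers, Nanog among them, had under 3 reads in every library. The sum of all 12 was 72.8 to 106 in eUB against 154 to 208 in E11.5 UB, nearly all of it from Tfcp2l1, at 87.2 ± 14.3 and 185 ± 24.4.

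Markers of other cell types also differed between iNP and E11.5 NP. Of 9 neural markers tested 6 were higher and 2 lower, with Sox1 at 5.96 ± 0.42 normalised CPM against 0.0195 ± 0.039, although the summed level of all 10 listed was 267 to 283 in iNP against 322 to 412 in E11.5 NP. All 6 endothelial markers were higher (57.0 to 97.9 summed, against 8.62 to 26.1), as were 7 of 9 SP markers (882 to 1355 against 538 to 589), while Foxd1 was lower, at 7.08 ± 1.25 against 62.8 ± 20.9. Of 11 UB markers 8 were higher and 1 lower, with sums of 373 to 487 against 483 to 594. In iSP against E11.5 SP, 4 of 6 endothelial markers were higher (35.6 to 57.8 summed, against 14.8 to 39.6), and the 3 erythroid markers tested were lower (all 7 summed to at most 0.0483, against 69.0 to 1484). Of 3 neural markers tested there 2 were lower (135 to 167 summed over 10, against 378 to 575). Of 11 UB markers 3 were higher and 4 lower, with Krt8 at 1.70 ± 0.49 against 17.9 ± 8.97. Of all genes tested, 64.7% were called in the iNP comparison and 67.6% in the iSP comparison. The part of residual ES cells or of these other cells in the Lin28a values was not tested.

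Lin28b (chr10:45376620-45486395, minus strand), the paralog also found in the nucleus, was higher in iNP and eUB. It was at 41.6, 35.3, 42.2 and 43.4 normalised CPM in iNP, at 37.6, 20.9, 21.6 and 19.8 in E11.5 NP and at 12.6 to 21.0 in E12.5 NP. Library 1 of E11.5 NP reached into the iNP range, and the difference between those groups was 0.72 ± 0.19 on the log2 scale (adjusted p = 0.0071), or 0.93 without that library. In eUB it was at 46.6, 51.8, 52.9 and 48.5, above every ex-fetu UB library: E11.5 UB held 34.0, 32.0, 33.4 and 34.2, and E12.5 UB held 33.9, 30.1, 27.3 and 21.7. The difference from E11.5 UB was 0.57 ± 0.07 (adjusted p = 8.6e-05), a call lost when all 36 libraries shared an estimate of spread (adjusted p = 0.061). Lin28b was thus the only member higher in eUB than in E11.5 UB. In iSP the 4 libraries lay within 24.5 to 25.8, inside the range of E11.5 SP, which held 42.0, 25.0, 15.1 and 8.09. The iSP difference was 0.39 ± 0.39 from E11.5 SP (adjusted p = 0.40) and 1.67 ± 0.10 from E12.5 SP (adjusted p = 1.3e-06), where Lin28b was at 6.47 to 8.29.

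**Figure D2:**
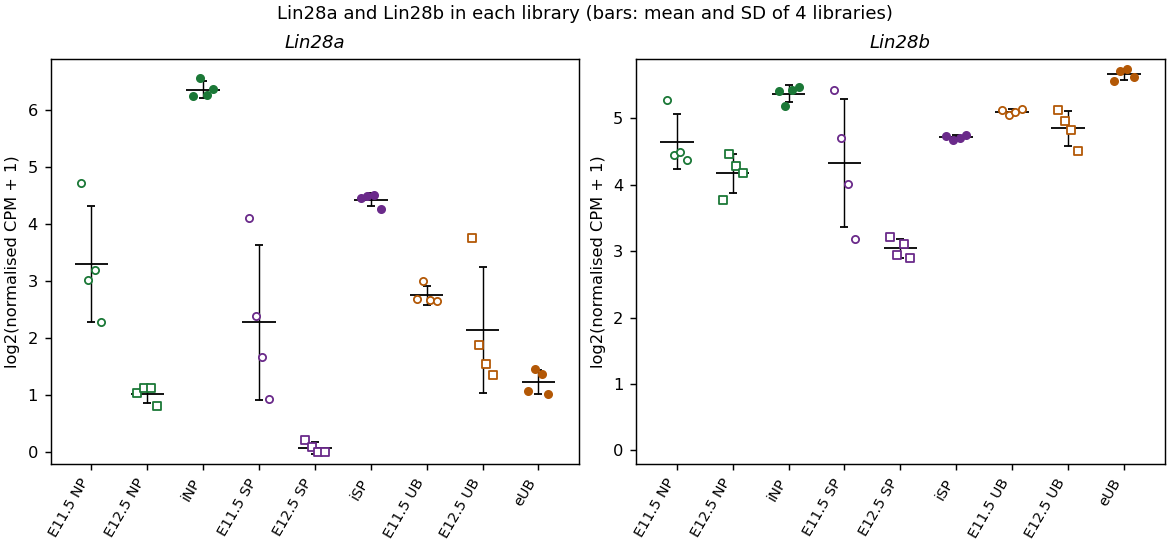
Lin28a (left) and Lin28b (right) in each of the 36 libraries, as log2(normalised CPM + 1), in green for NP, purple for SP and orange for UB. Open circles are E11.5, open squares E12.5 and filled circles ES-derived cells, and bars give the mean and SD of 4 libraries. Lin28a is highest in iNP and near 0 in E12.5 SP, while Lin28b is highest in eUB.

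The E11.5 SP libraries differed from each other in more than Lin28a. Library 1 was the highest and library 4 the lowest for Lin28a, Lin28b, Trim71, Arid3a, Hmga2 and Igf2bp1. Foxd1 ran the other way, at 265 normalised CPM in library 1 and 563 in library 4. Hoxd13, a distal HOX gene, was at 176 in library 1 and 26.8 in library 4, and the summed level of 7 erythroid markers was 69.0 and 1484. In E11.5 NP library 1 was likewise the highest and library 4 the lowest for the same members, with Lin28a at 25.3 and 3.86. The part of sample composition in the spread of the members was not tested, and in bulk samples fewer cells of a type and less RNA per cell cannot be told apart.

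Trim71 (chr9:114507133-114564369, minus strand), a ubiquitin ligase and mRNA repressor that is a conserved let-7 target, did not differ between iNP and E11.5 NP or between iSP and E11.5 SP by the test. It was at 61.6, 49.6, 60.3 and 63.0 normalised CPM in iNP and at 94.8, 59.3, 57.2 and 48.1 in E11.5 NP, a difference of -0.10 ± 0.19 on the log2 scale (adjusted p = 0.65). In iSP it was at 23.0, 25.9, 21.7 and 20.2, within the E11.5 SP libraries at 54.1, 35.6, 16.8 and 6.58 (0.05 ± 0.51, adjusted p = 0.94). E12.5 SP held 20.4, 4.58, 5.93 and 3.99 normalised CPM, its library 1 being the one with high Hspa1a, and iSP was 1.56 ± 0.40 higher (adjusted p = 0.0072). In eUB Trim71 was at 32.2, 48.6, 51.7 and 39.3, below all 4 E11.5 UB libraries at 71.5, 59.6, 61.7 and 65.2, a difference of -0.60 ± 0.14 (adjusted p = 0.0045). That call was lost when all 36 libraries shared an estimate of spread (adjusted p = 0.21).

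Hmga2 (chr10:120361275-120476469, minus strand) had its highest means in iSP and E11.5 SP. The mean of E12.5 SP, 896 normalised CPM, lay below the 1226 of E11.5 UB and beside the 920 of E12.5 UB. In iSP Hmga2 was at 1682, 1524, 1540 and 1624 normalised CPM, overlapping the 1657, 1459, 1476 and 1374 of E11.5 SP, with a difference of 0.10 ± 0.09 on the log2 scale (adjusted p = 0.38). E12.5 SP held 619, 1094, 962 and 908, and iSP was 0.86 ± 0.16 higher (adjusted p = 0.0011). In iNP 3 libraries held 990 to 1023 and library 2 held 545, against 721 to 750 in E11.5 NP. The difference was 0.24 ± 0.19 with all libraries (adjusted p = 0.30) and 0.46 without iNP library 2 (adjusted p = 2.5e-05), so that library decided the call. In eUB Hmga2 was at 705, 684, 665 and 598, below the 1164 to 1270 of E11.5 UB and the 867 to 958 of E12.5 UB. The eUB difference from E11.5 UB was -0.89 ± 0.08 (adjusted p = 8.3e-06).

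Hmga1 (chr17:27556497-27563674, plus strand) encodes the related architectural factor of proliferating cells. How reads that map to more than 1 place were counted is not given in the sources used here, and the Hmga1 values are uncertain for that reason. It was at 106 to 132 normalised CPM in iNP and 143 to 192 in E11.5 NP (-0.49 ± 0.11 on the log2 scale, adjusted p = 0.0038, but 0.099 with quantile normalisation). It was at 116 to 156 in eUB and 180 to 223 in E11.5 UB (-0.71 ± 0.11, adjusted p = 0.00039). In iSP it was at 87.6 to 102, overlapping the 99.5 to 135 of E11.5 SP (-0.25 ± 0.11, adjusted p = 0.059), and E12.5 SP held 55.0 to 87.0 (0.48 ± 0.14, adjusted p = 0.011). These tests hold only for the reads assigned to this gene, and no change of Hmga1 is read from them. Its calls in any comparison here are calls on those reads.

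Igf2bp1 (chr11:95957163-96005940, minus strand), an oncofetal protein that binds mRNAs such as those of Igf2 and Myc, was lower in every ES-derived type. In iNP its libraries held 286, 242, 314 and 312 normalised CPM, against 746, 707, 618 and 611 in E11.5 NP and 365, 334, 507 and 407 in E12.5 NP. In iSP they held 246, 298, 289 and 252, against 708, 694, 593 and 453 in E11.5 SP and 378, 357, 420 and 299 in E12.5 SP. In eUB they held 202, 266, 259 and 218, against 757, 581, 714 and 679 in E11.5 UB and 413, 457, 539 and 454 in E12.5 UB. In each of the 3 cell types all 4 ES-derived libraries lay below all 8 ex-fetu libraries, narrowly so in SP. The log2 differences from E11.5 were -1.22 ± 0.11 in NP (adjusted p = 1.4e-05), -1.15 ± 0.14 in SP (adjusted p = 8.2e-05) and -1.53 ± 0.11 in UB (adjusted p = 3.1e-06). Those from E12.5 were -0.47 ± 0.16 in NP (adjusted p = 0.033), -0.42 ± 0.12 in SP (adjusted p = 0.012) and -0.98 ± 0.12 in UB (adjusted p = 0.00026), or -1.03 without library 1 of E12.5 UB. The NP difference from E12.5 lost its call in 6 of the 8 fits that left out 1 library, and both it and the SP difference lost theirs with quantile normalisation.

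Of the other members of the family, neither passed the test in iNP against E11.5 NP and both were lower in eUB than in E11.5 UB. Igf2bp2 (chr16:22059009-22163299, minus strand), the paralog kept in many adult tissues, was at 259 to 411 normalised CPM in iNP, beside 373 to 405 in E11.5 NP (-0.11 ± 0.15, adjusted p = 0.51). The iSP libraries held 373 to 405, beside 347 to 444 for E11.5 SP (-0.03 ± 0.10, adjusted p = 0.79). In eUB it was at 245 to 316, below the 479 to 498 of E11.5 UB (-0.73 ± 0.09, adjusted p = 7.1e-05). Igf2bp3 (chr6:49085223-49214957, minus strand), which shares 1529 exonic bases with Malsu1 on the opposite strand, was at 289 to 319 in iSP against 237 to 275 in E11.5 SP (0.25 ± 0.08, adjusted p = 0.015). That call was lost when all 36 libraries shared an estimate of spread (adjusted p = 0.13). In eUB Igf2bp3 was at 142 to 150 against 177 to 203 in E11.5 UB (-0.40 ± 0.07, adjusted p = 0.00055). The per-kilobase sum of the 3 paralogs was 112 normalised CPM per kb in iNP, 118 in iSP and 82.0 in eUB, against 155, 149 and 160 in the E11.5 cells and 114, 113 and 126 in the E12.5 cells.

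Arid3a (chr10:79927043-79955018, plus strand), a DNA-binding protein of the ARID family, was likewise lower than at E11.5 in all 3 ES-derived types. It was at 80.3, 54.3, 96.5 and 91.4 normalised CPM in iNP against 157, 122, 120 and 107 in E11.5 NP (-0.66 ± 0.18 on the log2 scale, adjusted p = 0.010). It was at 47.8, 66.0, 60.3 and 50.2 in iSP against 173, 151, 103 and 70.5 in E11.5 SP (-1.06 ± 0.25, adjusted p = 0.0043). On the log2(value + 1) scale the eUB difference was the largest of any member there, whereas the ratio of means was 0.250 for Arid3a and 0.237 for Lin28a, whose low values that scale compresses. Arid3a was at 32.0, 54.8, 51.7 and 43.2 in eUB against 184, 184, 171 and 189 in E11.5 UB (-2.01 ± 0.15, adjusted p = 2.7e-06). Against E12.5 the differences were -0.16 ± 0.19 in NP (adjusted p = 0.51) and -0.12 ± 0.16 in SP (adjusted p = 0.53), but -1.74 ± 0.17 in UB (adjusted p = 8.5e-05), where E12.5 UB held 127 to 173. Without library 1 of E12.5 UB the last was -1.83 (adjusted p = 7.0e-05).

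Mycn (chr12:12936093-12941914, minus strand), a MYC-family transcription factor of nephron progenitors and the only member without a seed match, was at 72.8 to 77.2 normalised CPM in iNP. E11.5 NP held 37.4, 86.2, 97.4 and 90.9, with library 1 far below the other 3. The difference was 0.05 ± 0.26 on the log2 scale (adjusted p = 0.87), but without library 1 of E11.5 NP it was -0.26 (adjusted p = 0.022), so that library set the direction. In iSP Mycn was at 45.1 to 53.6 against 46.9 to 51.3 in E11.5 SP (-0.02 ± 0.08, adjusted p = 0.87). In eUB it was at 41.4 to 52.5, below the 76.0 to 83.5 of E11.5 UB (-0.75 ± 0.08, adjusted p = 4.0e-05). E12.5 UB held 49.7 to 53.3 in 3 libraries and 81.7 in library 1, and the eUB difference from it was -0.30 ± 0.16 (adjusted p = 0.15), or -0.14 without library 1 (adjusted p = 0.24).

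**Figure D3:**
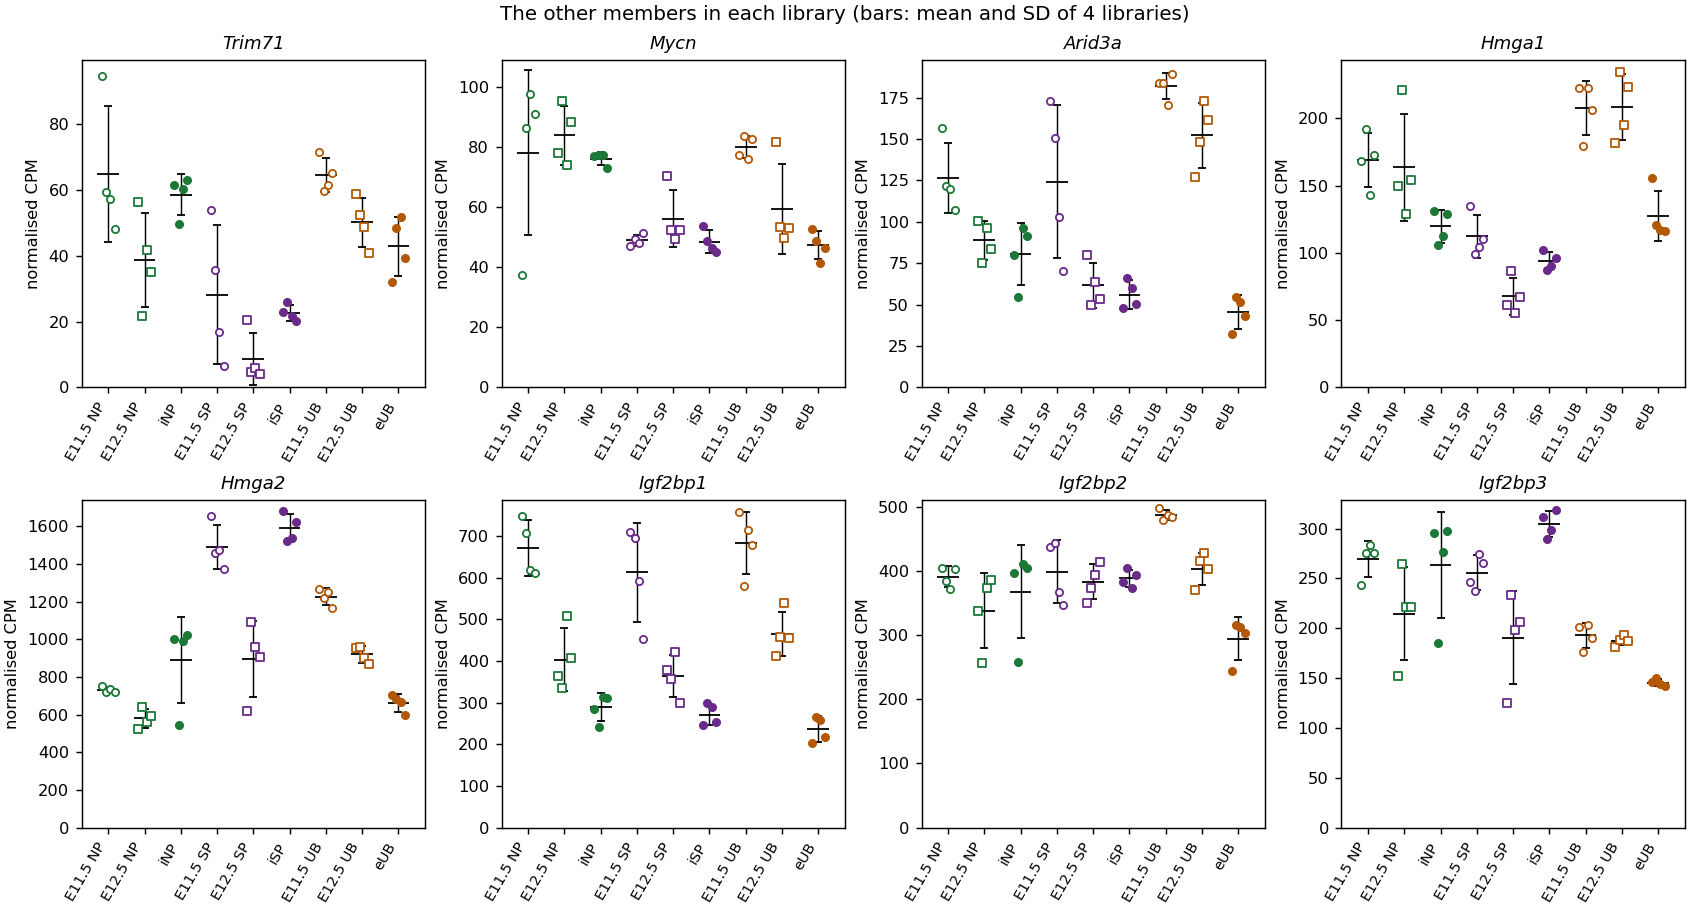
Normalised CPM of the 8 members other than Lin28a and Lin28b in each of the 36 libraries, in green for NP, purple for SP and orange for UB. Open circles are E11.5, open squares E12.5 and filled circles ES-derived cells, and bars give the mean and SD of 4 libraries. The filled points of Igf2bp1 lie lowest in each cell type, and those of Arid3a are at 32.0 to 54.8 in eUB.

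Whether ES-derived progenitors matched the ex-fetu cells they were modelled on is the question the comparison with E11.5 addresses. Between iNP and E11.5 NP, 5 of 10 members passed the test, 2 higher and 3 lower (4 of 9 without Hmga1, 2 in each direction), where 64.7% of all tested genes did. Between iSP and E11.5 SP, 4 passed, 2 higher and 2 lower, against 67.6% of all genes. Between eUB and E11.5 UB all 10 passed, 1 higher and 9 lower, against 60.5% of all genes, and the ranges of the 2 groups did not overlap for any member. Without Hmga1, whose values are uncertain, 9 of 9 passed, 1 higher and 8 lower. All 8 macrophage markers were lower in eUB as well, with a summed level of 0.371 to 0.816 normalised CPM against 58.8 to 98.4 in E11.5 UB. The sums of 10 neural markers (61.9 to 114 against 444 to 460) and of 7 erythroid markers (0 to 0.0859 against 5.95 to 52.9) were also lower. That of the SP markers was higher (215 to 236 against 165 to 175). The part of these markers in the results was not tested. The median log2 difference of the members was -0.08 in NP, 0.02 in SP and -0.74 in UB, beside 0.07, 0.04 and 0.02 over all genes tested. The members called in both mesenchymal types were Lin28a, higher, and Igf2bp1 and Arid3a, lower.

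**Figure D4:**
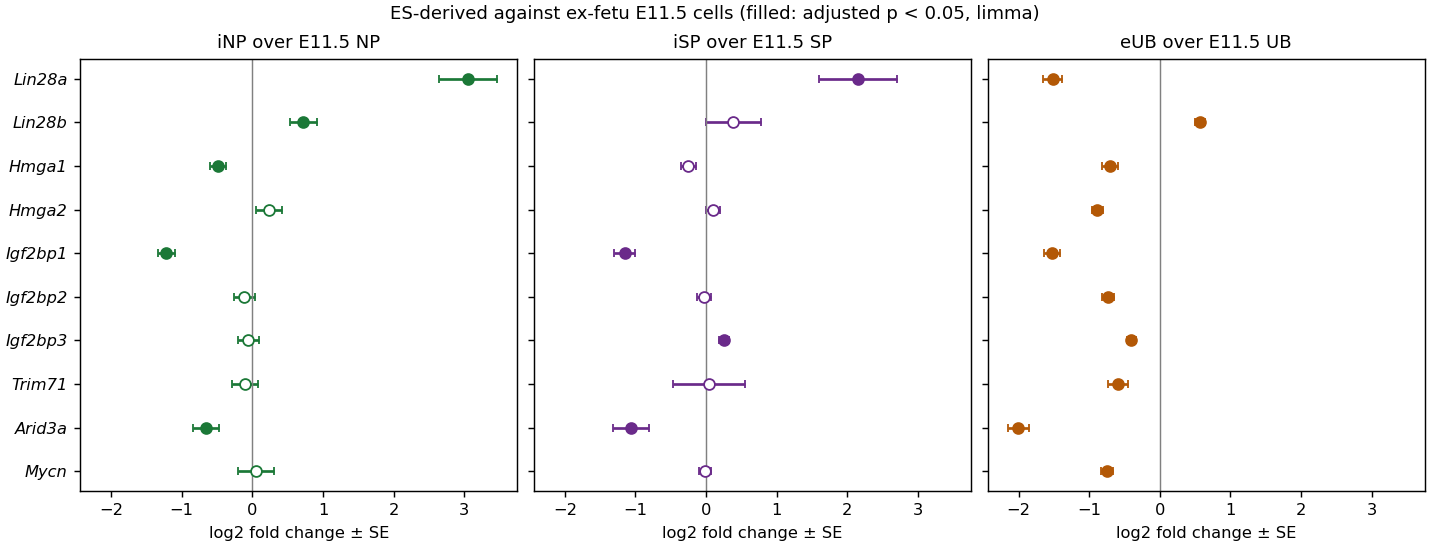
Log2 fold change with SE of each member in ES-derived over ex-fetu E11.5 cells, on the log2(value + 1) scale, for NP (left), SP (middle) and UB (right). Filled points passed the limma test. Lin28a lies far to the right in NP and SP, at 3.05 and 2.15, and to the left in UB, at -1.52.

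Against E12.5 cells, 4 members passed in NP (3 higher and 1 lower, with 44.3% of all genes called). In SP 7 passed (6 higher and 1 lower, with 62.1% of all genes called), and in UB 7 passed (1 higher and 6 lower, with 44.4% of all genes called), as many as without library 1 of E12.5 UB. The median log2 difference of the members was 0.20, 0.60 and -0.47, beside 0.04, 0.04 and -0.01 over all genes. Lin28a, Lin28b and Hmga2 were the members higher in iNP, and Lin28a, Lin28b, Hmga2, Igf2bp3 and Trim71 those higher in iSP, where Hmga1 was also counted. Without Hmga1, 6 of 9 passed in SP (5 higher and 1 lower) and 6 of 9 in UB (1 higher and 5 lower). The call of Hmga2 in NP was lost in 6 of the 8 fits that left out 1 library. These comparisons and those with E11.5 share the ES-derived samples. Marker sums of other cells differed here too. Macrophage markers were at 0.371 to 0.816 in eUB against 45.6 to 80.4 normalised CPM, and endothelial markers at 57.0 to 97.9 in iNP against 9.33 to 32.0. In iSP erythroid markers were at most 0.0483 against 283 to 2829, and UB markers at 229 to 252 against 89.3 to 128. The part of these markers was not tested. The mean of the ES-derived group lay above both ages for 3 members in NP and 4 in SP, below both for 4 and 3, and between them for 3 in each. In UB the mean lay above both for Lin28b and below both for the other 9.

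The 2 ages of ex-fetu cells address how the members move over a day of kidney development. In each cell type 9 of the 10 member means were higher at E11.5 than at E12.5, the exceptions being Mycn in NP and SP and Hmga1 in UB. Few of these differences passed the test. In NP 2 members passed, both lower at E12.5, with 6.34% of all genes called: Lin28a at -2.28 ± 0.42 on the log2 scale (adjusted p = 0.018) and Igf2bp1 at -0.75 ± 0.14 (adjusted p = 0.018). In SP 3 of 9 tested passed, all lower, with 8.52% of all genes called: Hmga1 at -0.73 ± 0.16 (adjusted p = 0.024), Hmga2 at -0.76 ± 0.17 (adjusted p = 0.028) and Igf2bp1 at -0.74 ± 0.17 (adjusted p = 0.028). Lin28a was not tested there, because too few of the 8 libraries reached a value of 1. In the fit without that filter it gave -2.20 (adjusted p = 0.058). Lin28b, at -1.29 ± 0.40, missed the threshold (adjusted p = 0.077). The median over the members was -0.41 in NP and -0.74 in SP, beside 0.02 and 0.00 over all genes. In the NP ages 4 of 11 UB markers, some of which nephron progenitors also express, were called, all higher at E12.5 (median 0.36, sums of 483 to 594 at E11.5 and 546 to 824 at E12.5). Markers of the ureteric bud fell in the comparison of SP ages (7 of 10 tested, all lower, median -1.60), with a summed level of 146 to 324 normalised CPM at E11.5 and 89.3 to 128 at E12.5. Hoxd13 was at 92.1 ± 70.2 and 5.23 ± 2.47, and the part of these markers in the differences of the members was not tested. These calls were fragile: leaving out 1 library at a time gave 0 to 5 members called in NP and 0 to 6 in SP.

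In UB, subject to the conflict of labels stated above, 5 members passed, all lower in the samples titled E12.5, with 26.5% of all genes called. They were Hmga2 (-0.41 ± 0.06, adjusted p = 0.0019), Igf2bp1 (-0.55 ± 0.10, adjusted p = 0.0050), Igf2bp2 (-0.27 ± 0.06, adjusted p = 0.0091), Trim71 (-0.36 ± 0.11, adjusted p = 0.036) and Mycn (-0.45 ± 0.14, adjusted p = 0.043). The calls of Trim71 and Mycn were lost in 7 of the 8 fits that left out 1 library, and in 2 and 5 of the 8 other alternatives. That of Igf2bp2 was lost in 2 of the 8 other alternatives. Without library 1 of E12.5 UB, 8 members passed, all lower, adding Lin28a at -1.16 (adjusted p = 0.00011), Lin28b at -0.34 (adjusted p = 0.014) and Arid3a at -0.18 (adjusted p = 0.033), and 5982 genes in all were called in place of 3648. Igf2bp1 was the only member called in the age comparison of all 3 cell types, and its calls in NP and SP were lost in 4 and 6 of the 8 fits that left out 1 library.

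**Figure D5:**
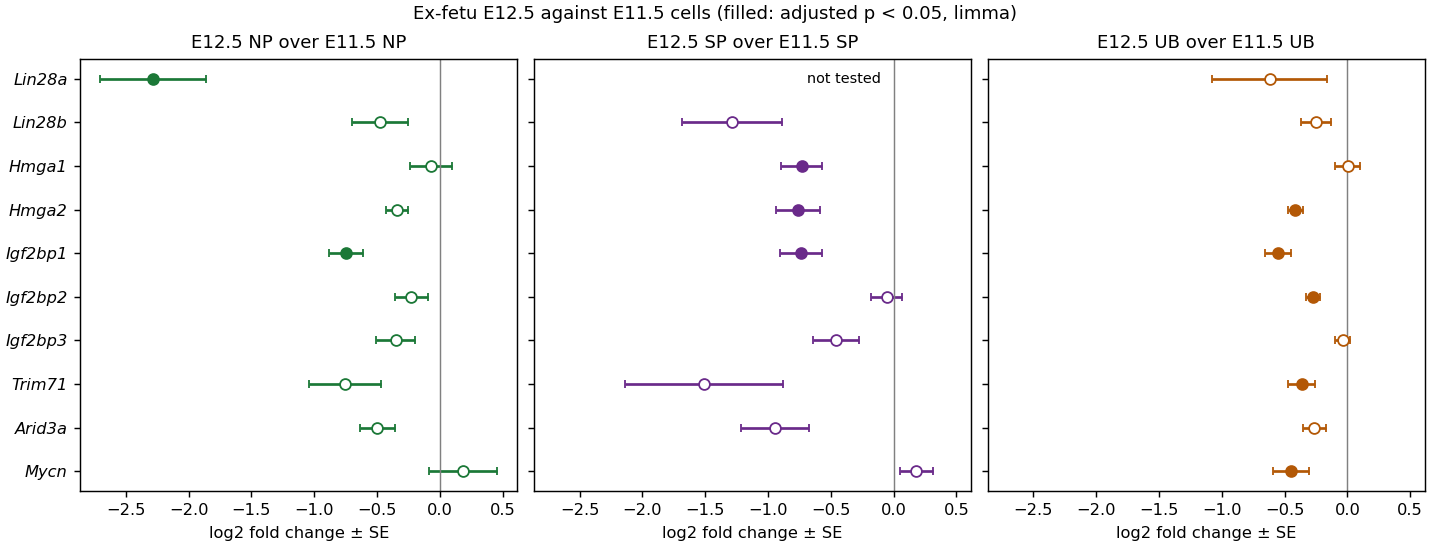
Log2 fold change with SE of each member in E12.5 over E11.5 ex-fetu cells, on the log2(value + 1) scale, for NP (left), SP (middle) and UB (right, by sample title). Filled points passed the limma test. Most points lie left of 0, Lin28a in SP is marked as not tested, and Igf2bp1 is filled in all 3 panels, at -0.75, -0.74 and -0.55.

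Among E11.5 cells, the members were compared between lineages. Between NP and SP 3 passed (43.1% of all genes called): Hmga2 was lower in NP (-1.02 ± 0.08 on the log2 scale, adjusted p = 1.3e-05), and Hmga1 (0.59 ± 0.12, adjusted p = 0.0035) and Trim71 (1.48 ± 0.53, adjusted p = 0.047) were higher. The Trim71 call was lost in 6 of the 8 fits that left out 1 library and by edgeR (1.19, adjusted p = 0.11), and its value ran from 0.95 to 1.91. Lin28a, at 1.03 ± 0.68 (adjusted p = 0.25), passed without library 1 of E11.5 SP (1.64, adjusted p = 0.042). It also passed with a replicate block (1.03, adjusted p = 0.0038 by limma), although same-numbered samples were not shown to be paired. Between UB and NP 6 passed (60.2% of all genes called), with Lin28b, Hmga1, Hmga2, Igf2bp2 and Arid3a higher in UB and Igf2bp3 lower. The Lin28b call (0.45 ± 0.16, adjusted p = 0.031) was lost in 7 of the 8 fits that left out 1 library, by edgeR (adjusted p = 0.051) and in the fit of all 36 libraries (adjusted p = 0.15), and that of Hmga1 in 2 of the 8. Between UB and SP 7 passed (53.6% of all genes called), with Hmga1, Igf2bp2, Trim71, Arid3a and Mycn higher in UB and Hmga2 and Igf2bp3 lower. Of these, the calls of Hmga2 (6 of 8), Igf2bp2, Trim71 and Arid3a (5 of 8 each) were lost in most fits that left out 1 library. Without library 1 of E11.5 NP, Mycn was lower in UB than in NP (-0.19, adjusted p = 0.018), where with it the difference was 0.12 ± 0.24 (adjusted p = 0.68). Macrophage markers summed to 58.8 to 98.4 normalised CPM in UB, against 0.341 to 0.821 in NP and 1.22 to 2.19 in SP. Erythroid markers summed to 69.0 to 1484 in SP, 12.2 to 70.6 in NP and 5.95 to 52.9 in UB. The part of these markers in the lineage differences was not tested.

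Among ES-derived cells the largest differences were those of Lin28a. Between iNP and iSP 6 members passed (30.7% of all genes called): Lin28a (1.93 ± 0.10 on the log2 scale, adjusted p = 1.0e-06), Trim71 (1.33 ± 0.11, adjusted p = 1.4e-05), Lin28b (0.66 ± 0.09), Mycn (0.64 ± 0.08) and Hmga1 (0.34 ± 0.09) were higher in iNP, and Hmga2 was lower (-0.88 ± 0.19, adjusted p = 0.0070). The Hmga1 call was lost in 4 of the 8 fits that left out 1 library. Between eUB and iNP 6 passed (52.2% of all genes called), with Lin28b higher in eUB (0.29 ± 0.10, adjusted p = 0.032). Lin28a (-5.13 ± 0.14, adjusted p = 4.3e-09), Igf2bp3, Trim71, Arid3a and Mycn were lower in eUB. The calls of Lin28b and Trim71 in this comparison were each lost in 5 of the 8 fits that left out 1 library. Between eUB and iSP 7 passed (64.7% of all genes called), with Lin28b, Hmga1 and Trim71 higher in eUB and Lin28a, Hmga2, Igf2bp2 and Igf2bp3 lower.

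Whether the difference between ES-derived and E11.5 cells itself differed between cell types was tested with interaction terms. Between NP and SP 0 of 10 members passed by limma (29.3% of all genes called), 0 had an unadjusted p under 0.05, and 0 passed by edgeR on recovered reads. Their differences ranged from -0.31 to 0.90 on the log2 scale. Between UB and NP 5 passed (47.1% of all genes called), all with a more negative difference in UB: Lin28a, Hmga2, Igf2bp2, Arid3a and Mycn. Between UB and SP 7 passed (47.4% of all genes called), again all more negative in UB, namely the same 5 genes with Igf2bp3 and, for the reads assigned to it, Hmga1. Without Hmga1, 6 of 9 passed. Lin28a gave the largest of these differences, at -4.57 ± 0.47 from NP (adjusted p = 7.6e-07) and -3.67 ± 0.61 from SP (adjusted p = 0.00013). For Lin28b the differences were -0.16 ± 0.21 and 0.18 ± 0.43, and for Igf2bp1 -0.31 ± 0.17 and -0.38 ± 0.19, none of which passed. The calls of Mycn between UB and NP and of Hmga1 between UB and SP were lost in 6 and 7 of the 16 fits that left out 1 library. The parent line and protocol of eUB enter each of these terms with UB.

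The machinery that makes and destroys let-7 was described with a list of 18 genes, 16 of them tested under the table's symbols. Against E11.5 cells 3 were higher and 9 lower in iNP, 6 and 5 in iSP, and 3 and 7 in eUB, with median log2 differences of -0.59, -0.10 and -0.19 beside 0.07, 0.04 and 0.02 over all genes. Of all genes, 64.7%, 67.6% and 60.5% were called in these comparisons, and no test was made of the counts. Trim25, the ubiquitin ligase known as a cofactor in LIN28A-guided uridylation of let-7 precursors, was higher in all 3. It was at 53.1 ± 9.67 normalised CPM in iNP against 23.6 ± 6.13 in E11.5 NP (SD, n = 4 each). The iSP held 22.2 ± 1.81 where E11.5 SP held 6.0 ± 1.24, and eUB held 49.7 ± 5.36 where E11.5 UB held 19.7 ± 2.14. The log2 differences were 1.15 ± 0.20 (adjusted p = 0.00065), 1.74 ± 0.14 (adjusted p = 4.9e-06) and 1.29 ± 0.11 (adjusted p = 5.5e-06). Khsrp, which promotes let-7 maturation, was lower in iNP (180 ± 15.0 against 452 ± 25.7, adjusted p = 2.0e-06) and iSP (190 ± 31.5 against 390 ± 41.9, adjusted p = 7.3e-05). Msi1, an RNA-binding protein reported to work with LIN28, was lower in iNP (169 ± 16.8 against 273 ± 20.7, adjusted p = 0.00021) and eUB (120 ± 12.1 against 212 ± 4.27, adjusted p = 1.7e-05). Of 13 let-7 host transcripts and hairpin genes 3 could be tested, and Mir99ahg, host of let-7c-1, was lower in iSP (7.10 ± 0.57 against 20.3 ± 3.81, adjusted p = 2.0e-05) and eUB (1.39 ± 0.23 against 3.74 ± 0.72, adjusted p = 0.00021).

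Other known let-7 targets, a list of 24 genes of which 14 held a 7-base match in their 3′ region, were lower more often than higher against E11.5 cells. Of those tested, 3 were higher and 7 lower in iNP, 3 and 14 in iSP and 5 and 14 in eUB, with median log2 differences of -0.18, -0.40 and -0.39. The called were 10 of 23, 17 of 24 and 19 of 23, where 64.7%, 67.6% and 60.5% of all genes were called, and no test was made of these shares. Against E12.5 cells 5 were higher and 3 lower in iNP, 6 and 9 in iSP and 3 and 10 in eUB, with medians of -0.03, -0.02 and -0.30. Peg10, a retrotransposon-derived imprinted gene, was higher in all 3, at 1826 ± 585 against 466 ± 42.0 normalised CPM in iNP (adjusted p = 0.00011), 3248 ± 136 against 965 ± 110 in iSP (adjusted p = 8.5e-07) and 1472 ± 62.5 against 347 ± 14.7 in eUB (adjusted p = 2.7e-08). Myc was lower in iNP (46.0 ± 4.99 against 235 ± 33.4, adjusted p = 4.8e-07) and iSP (26.7 ± 0.99 against 67.2 ± 5.0, adjusted p = 1.1e-06). Ccnd1, the cyclin of G1 entry, was higher in iNP, at 591 ± 36.8 against 138 ± 20.01 (adjusted p = 4.0e-07). Arid3b, the paralog of Arid3a, was lower in eUB (28.2 ± 4.10 against 73.8 ± 12.2, adjusted p = 2.6e-05). Igf2, whose mRNA the IGF2BP proteins bind, was higher in iNP (7520 ± 944 against 2248 ± 183, adjusted p = 3.4e-06) and iSP (9868 ± 330 against 3553 ± 595, adjusted p = 1.5e-05) and lower in eUB (713 ± 143 against 1385 ± 207, adjusted p = 0.00052). H19, the noncoding RNA imprinted opposite to Igf2, was at 25.1 ± 5.98 in iNP against 2941 ± 219.8 in E11.5 NP (adjusted p = 3.6e-09) and at 20.2 ± 7.50 in iSP against 3530 ± 357 in E11.5 SP (adjusted p = 1.9e-08). In eUB it was at 2004 ± 20.99 against 2228 ± 259 (adjusted p = 0.23).

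Of 12 genes of the MYC network tested, 3 were higher and 8 lower in iNP, 3 and 6 in iSP and 3 and 5 in eUB. Of 10 cell cycle genes, 5 were higher and 2 lower in iNP, 4 and 1 in iSP and 7 and 0 in eUB. The percentages of all genes called are those given above for the same comparisons.

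Outside the members, the genes of the table with an 8-base let-7 match in the 3′ region were set beside those without, a description added after the data had been seen. Between iNP and E11.5 NP the median log2 difference was -0.04 over 564 genes with a match and 0.06 over 12046 without. Between iSP and E11.5 SP it was -0.06 over 557 and 0.01 over 11927, and between eUB and E11.5 UB 0.02 over 563 and 0.02 over 12005. Among the ES-derived cells, eUB over iNP gave 0.11 over 567 genes with a match and 0.02 over 12332 without. For the difference of the ES-derived effects, UB minus NP gave 0.10 over 588 and -0.01 over 12816, and UB minus SP gave 0.08 over 590 and 0.00 over 12798. No test was made of these shifts.

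The genes whose pattern was most like each member were taken as those with the highest Pearson correlation of group means over the 9 groups, among 12643 genes, with no test. For Lin28a they were Metrn (r = 0.96), a secreted neurotrophic factor, and Igdcc3 (r = 0.95). For Lin28b they were Pnp (r = 0.97) and Greb1 (r = 0.96), for Trim71 Rps6ka1 and Med19 (r = 0.97 each), and for Igf2bp1 Ache (r = 0.98) and Tmem57 (r = 0.97). For Arid3a they were Psmd3 (r = 0.96) and Hgh1 (r = 0.95), and for Mycn Ak6 and Timm10 (r = 0.95 each). Among the members themselves, Igf2bp1 and Arid3a (r = 0.89) were the most alike. Hmga1 and Trim71 gave r = 0.86, which rests on the uncertain Hmga1 values, and Lin28a and Lin28b gave r = 0.54. The 9 points share libraries, normalisation and cell type structure. For Hmga2 the first gene was the pseudogene Gm38158 (r = 0.96), which is 94.6% identical to the Hmga2 transcript over 295 bases, so part of its reads may be those of Hmga2.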

How the data were processed

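RNA of sorted cells was sequenced from a stranded mRNA kit. The submitters' processing notes and the study's methods name Cutadapt for trimming, STAR for alignment and edgeR for normalisation by the authors. The counting program and its use of strand are not given in the sources used here. The build is written as GRCh38, whereas every gene ID is a mouse Ensembl ID, and 22642 of 22761 are in GENCODE vM21. The deposited table holds a normalised signal, CPM scaled by library factors, and dividing by each library's smallest step gave whole reads for every value (tolerance 0.001), hence the depth. A second deposited table holds the authors' means and comparisons (log2 fold changes, p-values and false discovery rates) and was not used.

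Groups followed sample titles. Genes at 1 or more in at least 4 of the libraries compared entered limma 3.58.1 (trend, R 4.3.3) as log2(value + 1). Each fit held only the groups named, with Benjamini-Hochberg adjustment over all genes and a threshold of 0.05. Library 1, 2, 3 or 4 is the replicate number of the title. Alternatives were another pseudocount, other filters, other scaling, edgeR 4.0.16 on recovered reads, a fit of all 36 libraries, a replicate block and leaving out each library. Same-numbered samples were not shown to be paired. The code of the tests was run on simulated counts with known changes and the same spread set for all genes. That run does not show how the tests behave with the uneven libraries described here. The members and gene lists were chosen with earlier results of these data known. Named genes were all members, any gene of a list of at most 6, and from each longer list up to 2 per direction with the smallest p among those called in each comparison with E11.5, of which a selection is given. Levels per kb used the exonic length in GENCODE vM21. Intervals cover counting error only. A result that needs a withheld item is not reported here.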

Additional observations from a re-analysis of the deposited data

Results flagged for a closer look

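In each group of 4, the highest or lowest library was set apart where its gap to the nearest other exceeded Dixon's 95% value. Of 90 groups 10 were, where chance gives about 1 in 20. These were Lin28a in library 2 of E11.5 UB (6.99 normalised CPM) and library 1 of E12.5 UB (12.6), Lin28b in library 1 of E11.5 NP (37.6), and Hmga1 in library 1 of eUB (156). Library 2 of iNP was low for Hmga2 (545) and Igf2bp2 (259). Library 1 of E12.5 SP was high for Trim71 (20.4) and Mycn (70.1), library 1 of E12.5 UB for Mycn (81.7), and library 4 of iNP was low for Mycn (72.8).

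The difference between ES-derived and E11.5 cells differed between cell types by an interaction term for 5 members between UB and NP: Lin28a (-4.57 on the log2 scale), Hmga2 (-1.12), Igf2bp2 (-0.62), Arid3a (-1.35) and Mycn (-0.80). Between UB and SP it differed for 7: Lin28a (-3.67), Hmga1 (-0.46), Hmga2 (-0.99), Igf2bp2 (-0.70), Igf2bp3 (-0.65), Arid3a (-0.94) and Mycn (-0.73). All 12 were more negative in UB.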

How the results depend on the processing

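Over all alternatives, 3098 values of members were recomputed: 2808 kept their direction and side of the threshold, 66 that were uncalled stayed so with the other sign, 156 lost a call, 66 gained one and 2 reversed. Both reversals were of Mycn without library 1 of E11.5 NP: -0.26 in iNP against E11.5 NP (-0.26 to 0.19 over the libraries left out in turn) and -0.19 in E11.5 UB against NP (-0.19 to 0.26). Lin28a, Igf2bp1 and Arid3a kept their calls against E11.5 cells under every alternative, in all 3 cell types. The age comparisons moved most. The number of members called between E12.5 and E11.5 NP, 2, became 1 with a filter of at least 5 normalised CPM. In SP, 3 became 7 in a fit of all 36 libraries. In UB, 5 became 3 without a filter, 2 in the fit of all 36 libraries and 3 with the replicate block. Leaving out 1 library at a time gave 0 to 5 in NP, 0 to 6 in SP and 3 to 8 in UB. It gave 2 to 4 for iNP against E12.5 NP (4 with all libraries), 3 to 8 for E11.5 UB against SP (7 with all libraries) and 0 to 1 for the difference between the NP and SP effects (0 with all libraries). Over all genes, the age comparison called 850 genes in NP, against 469 with a filter of at least 5 and 1528 in the fit of all 36 libraries. In SP the counts were 1162, 762 and 2987. Leaving out 1 library gave 147 to 2249 genes in NP, the highest without library 1 of E12.5 NP, and 392 to 2889 in SP, the highest without library 1 of E12.5 SP. In UB the replicate block gave 2365 genes in place of 3648, and 2332 were called without library 1 of E11.5 UB. The pairing by replicate number was not borne out: in no comparison did all 4 same-numbered pairs correlate above 0.1, and 0 to 3 of 4 samples correlated best with their own number. With the replicate block, Lin28a was called between E11.5 NP and SP (1.03, adjusted p = 0.0038 by limma). With quantile normalisation, 47.7% of the genes called in the NP and SP interaction were higher, in place of 59.5%. Reads recovered from the values were whole for 100% of values, and edgeR on them called 9114, 9402 and 8520 genes in iNP, iSP and eUB against E11.5 cells, where limma called 9102, 9411 and 8445. The call of Hmga1 in iNP against E11.5 NP was lost with quantile normalisation (-0.23, adjusted p = 0.099 by limma). In E12.5 SP Lin28a was at 3 reads or fewer in every library, among them library 2, the deepest of the series at 52.5 M counted reads.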
